A study of Mus musculus with 24 samples.

Results

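Glycolysis and pentose phosphate genes are here 37 genes, listed by symbol rather than by any measured value, that serve glucose uptake, glycolysis, lactate handling, the entry of pyruvate into mitochondria and the pentose phosphate pathway, together with the regulator Hif1a. All 37 were found among the 24421 genes that the authors counted. RNA-seq had been carried out on common lymphoid progenitors (CLPs) and on B cell progenitors of 4 genotypes, with 1 library of each population from each of 3 mice per genotype, 24 libraries from 12 mice in all. The comparison of genotypes asks how transcripts of these cells differ when phospholipase C gamma, an enzyme of antigen and cytokine receptor signalling, is missing.

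The 4 genotypes were Plcg1+/+Plcg2+/+ (here wild-type), Plcg1-/-Plcg2+/+ and Plcg1+/+Plcg2-/- (single-deficient), and Plcg1-/-Plcg2-/- (double-deficient). All donor mice, the wild-type ones included, carried the MxCre transgene and a YFP reporter of Cre activity, were of mixed 129 and C57BL/6 background, and were given poly(I-C). The Mx promoter that drives Cre responds to type I interferon and is therefore not specific for lymphoid cells, and the Plcg2 allele was lost in the germ line, whereas Plcg1 was deleted only after the treatment. The marrow was transplanted into lethally irradiated wild-type recipients marked by CD45.1, from which donor cells (CD45.2+) were sorted as CLPs (Lin-IL-7R+) or as B cell progenitors (B220+IgM-IL-7R+). The number of donors behind the 3 recipients of a genotype is not given in the sources used here, so the spread between libraries is a spread between recipients. In sorted bulk RNA, fewer cells of a type and less RNA per cell cannot be told apart.

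Glycolysis splits glucose into pyruvate in the cytosol, with hexokinase and phosphofructokinase as its committed steps and pyruvate kinase as its last. Pyruvate is reduced to lactate, which leaves the cell through monocarboxylate transporters, or is oxidised by the mitochondrial pyruvate dehydrogenase complex, which the Pdk kinases switch off. The pentose phosphate pathway branches off at glucose phosphate, makes NADPH in its oxidative arm and ribose phosphate for nucleotides in its non-oxidative arm. Hif1a encodes the subunit of the transcription factor HIF that is stable when oxygen is low, and many glycolytic genes are known targets of HIF and of Myc. Proliferating lymphoid progenitors are known to take up glucose in response to IL-7 and mTOR signalling.

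A CLP library held 4232345 to 33219995 reads on genes and a B cell progenitor library 1479582 to 25057223, and 3 reads on a gene corresponded to at most 0.709 CPM in CLPs (read counts scaled to the size of the library) and 2.03 CPM in B cell progenitors. The share of reads on no gene was 17.9% to 45.2% in CLPs but 59.9% to 87.3% in B cell progenitors, with no overlap between the populations. Plcg2 was lower in every Plcg2-/- library than in every Plcg2+/+ library of the same population (72.0 to 134 CPM against 168 to 282 CPM), whereas the whole-gene count of Plcg1 did not separate the Plcg1 genotypes. All Plcg1-/- libraries had high Xist and low Ddx3y, so the Plcg1 genotype and the sex of the donor cells cannot be told apart.

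The labels of the populations were checked against Flt3, a marker of CLPs that was not part of the sort used here, and against Gata3 and Notch1. In 4 CLP libraries (wild-type replicate 1, Plcg1-/-Plcg2+/+ replicate 2, Plcg1+/+Plcg2-/- replicate 2 and double-deficient replicate 2) Flt3 lay between 199.5 and 772 CPM, Gata3 between 68.6 and 132 CPM and Notch1 between 419 and 725 CPM. In the 8 other CLP libraries Flt3 was 25.8 to 121 CPM, Gata3 2.19 to 54.4 CPM and Notch1 191 to 324 CPM. The 12 B cell progenitor libraries gave 25.7 to 112 CPM for Flt3, 1.29 to 18.8 CPM for Gata3 and 108 to 259 CPM for Notch1. By Flt3, the 8 CLP libraries were thus within or just above the range of the B cell progenitors. For the leading genes below, values without the 4 libraries, or without the mice they came from, are also given.

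The promoters of 6 of the genes followed below are shown. Others that are followed as closely, among them Hk1, Pdk1, Aldoa and Pdha1, are not printed. Pgls and Rpia had the lowest p-values of the members in double-deficient against wild-type CLPs, Gapdh, Ldha and Slc2a1 were lower in B cell progenitors than in CLPs of every mouse, and Slc16a1 differed from the other transporter of lactate. Each run holds 250 bases before and 50 bases after a RefSeq start site in GRCm38.p6, 5′ to 3′ on the strand of the gene, and capitals mark ACGTG, the core of the site that HIF binds, on either strand, together with CACGTG, the E-box bound by Myc and other factors, which itself holds ACGTG.
Pgls (chr8:71591934-71592233, plus strand): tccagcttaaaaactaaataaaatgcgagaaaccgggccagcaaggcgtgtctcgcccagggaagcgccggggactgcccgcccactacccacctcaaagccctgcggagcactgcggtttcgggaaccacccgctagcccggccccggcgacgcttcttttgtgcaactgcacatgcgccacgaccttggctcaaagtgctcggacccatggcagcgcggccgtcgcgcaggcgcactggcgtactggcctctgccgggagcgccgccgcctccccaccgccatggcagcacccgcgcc
Rpia (chr6:70792126-70792425, minus strand): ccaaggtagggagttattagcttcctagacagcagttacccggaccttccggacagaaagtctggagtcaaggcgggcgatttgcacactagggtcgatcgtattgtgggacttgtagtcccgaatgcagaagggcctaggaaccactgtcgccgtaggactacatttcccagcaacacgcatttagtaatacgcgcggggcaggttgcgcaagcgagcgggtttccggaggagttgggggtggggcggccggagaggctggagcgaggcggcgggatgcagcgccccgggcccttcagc
Gapdh (chr6:125165724-125166023, minus strand): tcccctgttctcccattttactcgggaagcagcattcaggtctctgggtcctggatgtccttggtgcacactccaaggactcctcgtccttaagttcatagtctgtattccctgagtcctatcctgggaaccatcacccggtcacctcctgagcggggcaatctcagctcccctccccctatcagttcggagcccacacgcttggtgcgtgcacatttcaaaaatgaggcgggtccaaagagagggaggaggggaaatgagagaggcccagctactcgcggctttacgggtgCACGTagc
Ldha (chr7:46845554-46845853, plus strand): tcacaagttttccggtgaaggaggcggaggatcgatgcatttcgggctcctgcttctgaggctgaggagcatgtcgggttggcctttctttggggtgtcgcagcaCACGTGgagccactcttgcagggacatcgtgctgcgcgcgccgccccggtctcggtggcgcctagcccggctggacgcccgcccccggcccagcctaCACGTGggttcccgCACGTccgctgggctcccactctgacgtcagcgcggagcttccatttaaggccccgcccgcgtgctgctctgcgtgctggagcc
Slc2a1 (chr4:119108495-119108794, plus strand): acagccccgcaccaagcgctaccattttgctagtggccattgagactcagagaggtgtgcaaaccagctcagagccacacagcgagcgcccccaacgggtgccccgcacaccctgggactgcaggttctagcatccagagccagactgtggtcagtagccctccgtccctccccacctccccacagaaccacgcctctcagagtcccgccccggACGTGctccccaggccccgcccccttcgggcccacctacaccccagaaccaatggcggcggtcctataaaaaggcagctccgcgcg
Slc16a1 (chr3:104638414-104638713, plus strand): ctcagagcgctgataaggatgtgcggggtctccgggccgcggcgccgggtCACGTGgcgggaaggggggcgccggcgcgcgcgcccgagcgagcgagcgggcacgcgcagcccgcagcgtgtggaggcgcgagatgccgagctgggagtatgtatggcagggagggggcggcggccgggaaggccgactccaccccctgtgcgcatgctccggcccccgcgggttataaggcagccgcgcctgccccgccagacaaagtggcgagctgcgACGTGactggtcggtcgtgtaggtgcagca

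Capitals appeared in the promoters of Gapdh, Ldha, Slc2a1 and Slc16a1, with 1, 5, 1 and 3 matches of ACGTG, and in neither of the printed promoters of Pgls and Rpia. Ldha has 2 promoters, of which only 1, the printed one, held ACGTG. Of the genes not printed, Hk1 held it in 1 of 2 promoters and Aldoa in 2 of 3. Pdk1 held it in 0 of 2 and Pdha1 in 0 of 1. RefSeq promoters were matched for 36 of the 37 genes, all but Slc2a3, and held ACGTG in at least 1 promoter of 20 genes. Of their 51 promoters, 23 (45.1%) held ACGTG, against 19.6% of all 32851 promoters of the same length. CACGTG was in 6 of them (11.8%), against 7.15% of all, and ACGTG outside CACGTG in 21 (41.2%), against 13.6%. The 20 genes with ACGTG and the 16 without it had nearly the same median log2 fold change in double-deficient against wild-type CLPs (0.20 and 0.21), and medians of -0.40 and -0.30 in wild-type B cell progenitors against CLPs. These matches are letters in a window and do not show that a factor was bound.

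Together these genes took 0.582% to 0.723% of gene reads in CLPs and 0.467% to 0.624% in B cell progenitors. In wild-type CLPs the highest levels per kilobase of exon were those of Gapdh (367 CPM per kb), the glycolytic enzyme that yields NADH, of Pgls (304 CPM per kb), the lactonase of the oxidative pentose phosphate arm, of Ldha (301 CPM per kb), the main lactate dehydrogenase of proliferating cells, of Pkm (266 CPM per kb), pyruvate kinase, and of Taldo1 (222 CPM per kb), transaldolase. In wild-type B cell progenitors Pgls was first (373 CPM per kb), ahead of Ldha (234 CPM per kb) and Gapdh (204 CPM per kb). At the low end were the brain-type aldolase Aldoc (1.58 CPM per kb in wild-type CLPs), Eno1 (0.408 CPM per kb) and the neuronal enolase Eno2 (0.255 CPM per kb). Of the enolase genes Eno3 had the highest count, at 7.74 CPM per kb in wild-type CLPs and 5.73 CPM per kb in wild-type B cell progenitors. Eno1, the form most tissues use, shares 58.1% of its 50-base exon windows with other genes, most of all with Eno1b, so its count is uncertain. The main enolase of these cells cannot be told from these counts. Gapdh, Pkm and Ldha share 90.4%, 34.4% and 17.1% of their windows with other genes.

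Loss of both Plcg1 and Plcg2 was the first comparison. No gene of the 37 passed the threshold in double-deficient against wild-type CLPs by edgeR's quasi-likelihood test (p adjusted by Benjamini-Hochberg over all genes tested, at most 0.05, with a log2 fold change of 0.5 or more in size), where 0.0921% of all genes did. At an unadjusted p of at most 0.05 there were 7 of 37 against 7.52% of all genes, with 6 higher (3.68% of all genes) and 1 lower (3.84%), and DESeq2 called 2 (Pgls lower and Rpia higher), against 1.13% of all genes. Among B cell progenitors 35 of the 37 genes passed the filter on low counts, all but Eno1 and Eno2. None of the 35 was called in double-deficient against wild-type cells, against 0.893% of all genes. Here 9 of 35 had an unadjusted p of at most 0.05 against 12.3% of all genes, with 5 higher (5.71%) and 4 lower (6.56%), and DESeq2 called 2 (Pgls lower and Pdk1 higher), against 2.92% of all genes.

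**Figure D1:**
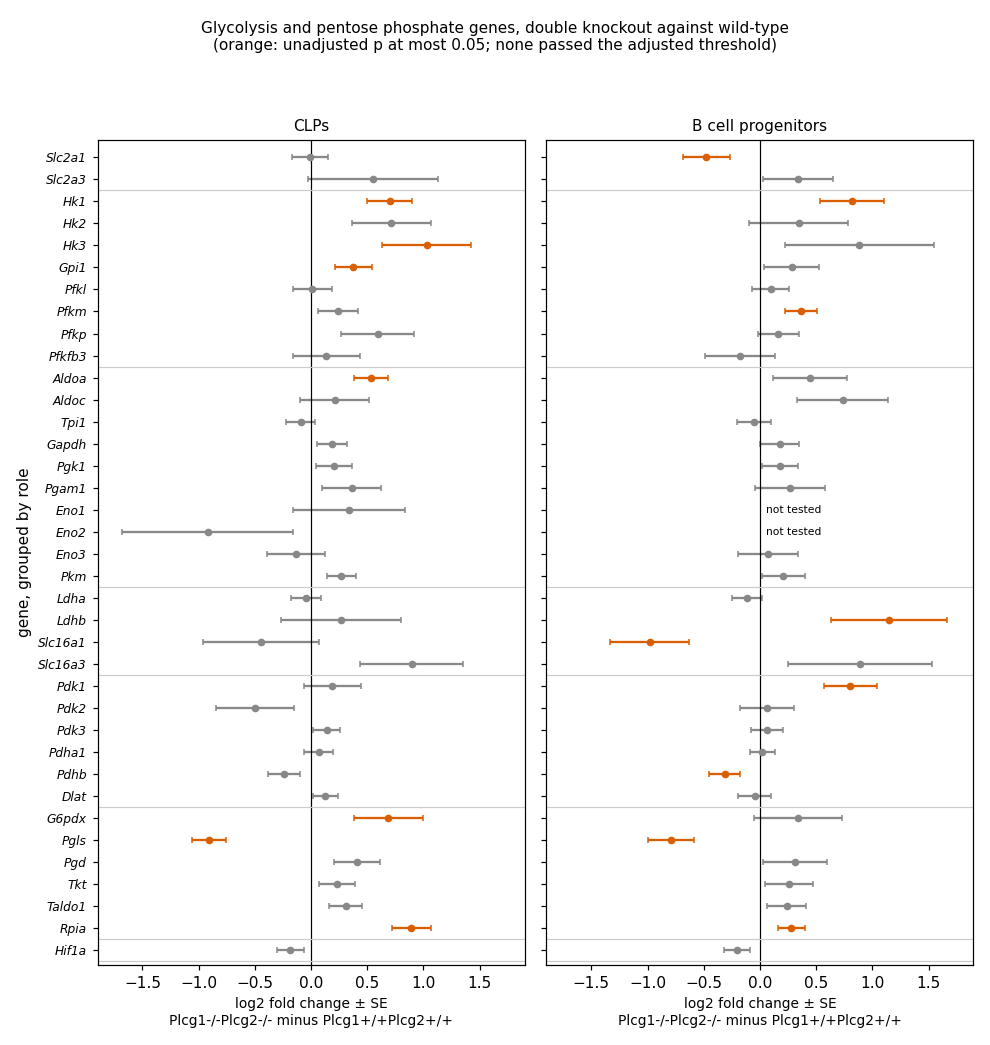
Log2 fold change with its standard error of each of the 37 genes in double-deficient against wild-type cells, CLPs on the left and B cell progenitors on the right, from 3 libraries a group, with unadjusted p of at most 0.05 in orange. The median is 0.21 in both populations, no gene passed the adjusted threshold, and Pgls and the low-count gene Eno2 are the lowest in CLPs.

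The members lay higher on the whole in the double-deficient cells, by a small amount. In CLPs 27 of 37 had a positive log2 fold change and their median was 0.21, against 45.6% positive and a median of -0.03 over all genes tested. In B cell progenitors 26 of 35 were positive with a median of 0.21, against 48.2% positive and a median of -0.02 over all genes. The share of reads on the genes was 0.608% ± 0.0198 (SD, n = 3) in wild-type and 0.701% ± 0.0232 (SD, n = 3) in double-deficient CLPs, and 0.516% ± 0.0449 and 0.566% ± 0.0519 (SD, n = 3 each) in the B cell progenitors. Plcg1-/-Plcg2+/+ cells were nearer to the double-deficient than to the wild-type ones, at 0.675% ± 0.0361 in CLPs and 0.544% ± 0.0589 in B cell progenitors (SD, n = 3 each). Plcg1+/+Plcg2-/- cells had 0.613% ± 0.0527 and 0.552% ± 0.0771 (SD, n = 3 each).

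Transcripts of myeloid cells were also higher in most double-deficient libraries. The summed level of 7 granulocyte genes was 1941 to 3107 CPM in wild-type and 3097 to 6822 CPM in double-deficient CLPs, and 1108 to 3908 CPM and 2438 to 5544 CPM in the B cell progenitors. The sum of 7 macrophage genes was 604 to 1323 CPM in wild-type and 749.6 to 2069 CPM in double-deficient CLPs, and 375 to 1169 CPM and 584 to 2019.7 CPM in the B cell progenitors, and no gene of either list was at 0 in a whole group. With the level of both lists as a covariate, a choice made after the data were seen, the median of the members was 0.13 in CLPs and -0.01 in B cell progenitors.

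Pgls was the gene of this group that differed most clearly between the genotypes. It lies on chromosome 8 of GRCm38 (71592176 to 71601092, plus strand, GENCODE) and encodes the lactonase that follows glucose phosphate dehydrogenase. Its levels were 314, 433 and 328 CPM in wild-type CLPs and 187, 192 and 208 CPM in double-deficient CLPs. The single-deficient CLPs had 250.4, 248 and 253 CPM (Plcg1-/-Plcg2+/+) and 237, 280.1 and 276 CPM (Plcg1+/+Plcg2-/-), so that every knockout library was below every wild-type library, and every double-deficient library was below every single-deficient one. The log2 fold change in double-deficient CLPs was -0.91 ± 0.15 (SE), with an unadjusted p of 6.4e-05 and an adjusted p of 0.0572 by edgeR, just outside the threshold, and an adjusted p of 3.1e-05 by DESeq2.

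In B cell progenitors Pgls had 465, 466 and 386 CPM in wild-type libraries and 226, 299 and 246 CPM in double-deficient ones. The single-deficient libraries again lay below the wild-type ones, with 268, 348 and 263 CPM (Plcg1-/-Plcg2+/+) and 253, 364 and 309 CPM (Plcg1+/+Plcg2-/-). The double-deficient log2 fold change was -0.79 ± 0.20 (SE, adjusted p = 0.125 by edgeR and 0.00985 by DESeq2). With the myeloid level as a covariate it was -0.53, and the value in CLPs was -0.85. Without the 4 CLP libraries of high Flt3 the log2 fold change in CLPs was -1.01 (adjusted p = 0.126 by edgeR, on 2 libraries a group). Pgls lies 45.9 Mb from Plcg2 on the same chromosome in these mice of mixed strain background. Pdk1 and Pfkfb3 lie 88.9 and 149 Mb from Plcg1 on chromosome 2. The part of linkage in these values was not tested.

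Rpia, on chromosome 6 (70765720 to 70792232, minus strand), encodes the isomerase that makes ribose phosphate. It had 107, 134 and 130.0 CPM in wild-type CLPs and 185, 247 and 273 CPM in double-deficient CLPs, a log2 fold change of 0.89 ± 0.17 (SE, adjusted p = 0.108 by edgeR and 0.00112 by DESeq2). Without the 4 CLP libraries of high Flt3 it was 0.74 (adjusted p = 0.306 by edgeR), and with the myeloid level as a covariate 0.81. The Plcg1-/-Plcg2+/+ CLPs (143, 121 and 114 CPM) and the Plcg1+/+Plcg2-/- CLPs (149, 118 and 119 CPM) overlapped with wild-type CLPs, and all of them were below the double-deficient libraries. Against the single-deficient CLPs Rpia was called by DESeq2 (adjusted p = 0.00217 against Plcg1-/-Plcg2+/+ and 0.00667 against Plcg1+/+Plcg2-/-), but not by edgeR. Double-deficient B cell progenitors had 205, 176 and 185 CPM against 144, 156 and 161 CPM in wild-type ones, also without overlap, with a log2 fold change of 0.28 ± 0.12 (SE, adjusted p = 0.367 by edgeR).

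**Figure D2:**
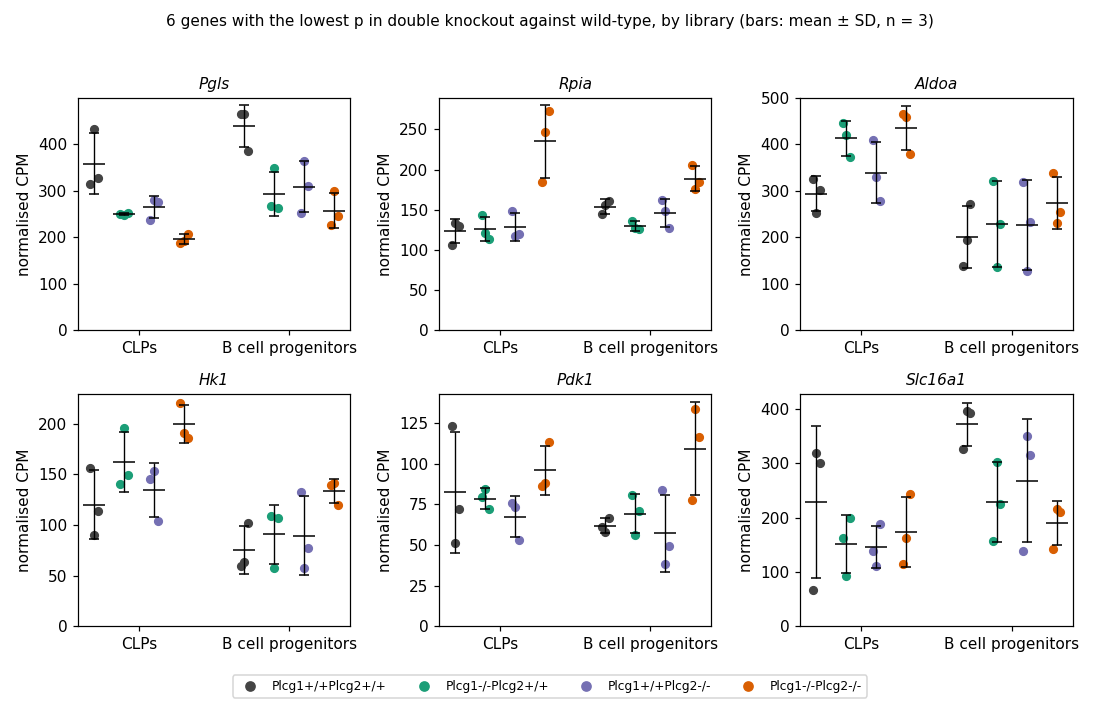
Normalised CPM by library (points), with the mean and SD of the 3 libraries of each genotype, for the 6 genes with the lowest p-values in double-deficient against wild-type cells. Pgls is lower in all knockout libraries than in the wild-type ones of the same population, Rpia is highest in the double-deficient CLPs, and the libraries of a genotype spread widely for Slc16a1 in CLPs.

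The other genes of the pentose phosphate pathway lay above the wild-type level in the double-deficient cells, but none was called. G6pdx, the X-linked glucose phosphate dehydrogenase, had 93.1, 85.3 and 102 CPM in wild-type and 215, 108 and 139 CPM in double-deficient CLPs (log2 fold change 0.69 ± 0.31 SE, adjusted p = 0.654 by edgeR). This value became 0.086 with the myeloid level as a covariate, 0.36 without double-deficient replicate 1 and 0.85 without the 4 libraries of high Flt3. B cell progenitors had 56.1, 72.5 and 116 CPM in wild-type and 140.0, 77.3 and 93.8 CPM in double-deficient libraries, and its log2 fold change of 0.34 became -0.20 with the myeloid level as a covariate. It was 0.061 without double-deficient replicate 1 and 0.69 without wild-type replicate 3. Pgd, the decarboxylating dehydrogenase of the oxidative arm, Tkt, transketolase, and Taldo1 had log2 fold changes of 0.41, 0.23 and 0.31 in CLPs and of 0.31, 0.26 and 0.24 in B cell progenitors, with adjusted p between 0.591 and 0.777 by edgeR.

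Hk1, the hexokinase of most tissues, showed the clearest difference among the genes of the first steps. It had 157, 89.9 and 114 CPM in wild-type CLPs and 221, 191 and 186 CPM in double-deficient ones, a log2 fold change of 0.70 ± 0.20 (SE, adjusted p = 0.355 by edgeR). B cell progenitors had 59.4, 63.6 and 102 CPM in wild-type and 139, 142 and 119 CPM in double-deficient libraries, a log2 fold change of 0.82 ± 0.28 (SE, adjusted p = 0.255 by edgeR). The groups did not overlap in either population, and without the 4 CLP libraries of high Flt3 the log2 fold change in CLPs was 0.93. With the myeloid level as a covariate the log2 fold change was 0.78 in CLPs and 0.53 in B cell progenitors. Over the hexokinase and phosphofructokinase steps (Hk1, Hk2, Hk3, Gpi1, Pfkl, Pfkm, Pfkp and Pfkfb3) 8 of 8 were positive in double-deficient CLPs with a median of 0.48, and 7 of 8 in B cell progenitors with a median of 0.31. Hk3, a hexokinase of myeloid cells, had the highest value in CLPs (1.03 ± 0.40 SE, adjusted p = 0.574 by edgeR).

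Aldoa, the aldolase of glycolysis, had 326, 252 and 303 CPM in wild-type and 465, 459.7 and 379.8 CPM in double-deficient CLPs (log2 fold change 0.53 ± 0.15 SE, adjusted p = 0.346 by edgeR, and 0.55 without the 4 libraries of high Flt3). The log2 fold change was 0.45 with the myeloid level as a covariate. The Plcg1-/-Plcg2+/+ CLPs, at 446, 420.4 and 373 CPM, were above the wild-type libraries as well, and the Plcg1+/+Plcg2-/- ones, at 409, 330.5 and 278 CPM, overlapped with them. The Aldoa libraries of the genotypes overlapped in B cell progenitors. Over the 10 genes of lower glycolysis (Aldoa, Aldoc, Tpi1, Gapdh, Pgk1, Pgam1, Eno1, Eno2, Eno3 and Pkm) 7 were positive in double-deficient CLPs with a median of 0.20. X-linked Pgk1, phosphoglycerate kinase, had 104, 118 and 113 CPM in wild-type and 128, 129 and 138 CPM in double-deficient CLPs, and 98.0, 115 and 109 CPM and 143, 121 and 103 CPM in the B cell progenitors, with log2 fold changes of 0.20 and 0.18. With the myeloid level as a covariate these were 0.024 and 0.051. The CLP value was 0.14 without the 4 libraries of high Flt3 and 0.12 without wild-type replicate 1, and the B cell progenitor value ranged from 0.047 without double-deficient replicate 1 to 0.28 without double-deficient replicate 3. Of the 50-base exon windows of Pgk1 68.0% occur in other genes as well.

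Slc16a1 and Pdk1 stood out in B cell progenitors. Slc16a1, a monocarboxylate transporter that carries lactate in either direction (chromosome 3, 104638668 to 104658462, plus strand), had 326, 396 and 392 CPM in wild-type and 143, 215 and 210.2 CPM in double-deficient B cell progenitors, a log2 fold change of -0.98 ± 0.35 (SE, adjusted p = 0.276 by edgeR). This value was -0.67 with the myeloid level as a covariate. The Plcg1-/-Plcg2+/+ libraries, at 157, 303 and 226 CPM, were all below the wild-type ones, while those of Plcg1+/+Plcg2-/-, at 138, 349.8 and 314 CPM, were not. In CLPs the wild-type libraries themselves spread from 67.4 to 319.6 CPM, the lowest being replicate 1, 1 of the 4 libraries of high Flt3.

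Pdk1, the kinase that switches off pyruvate dehydrogenase and a known target of HIF, had 61.1, 58.0 and 66.9 CPM in wild-type and 77.9, 134 and 116 CPM in double-deficient B cell progenitors. The groups did not overlap, with a log2 fold change of 0.80 ± 0.24 (SE, adjusted p = 0.184 by edgeR and 0.0464 by DESeq2). This value was 0.67 with the myeloid level as a covariate. In CLPs the Pdk1 libraries overlapped, with a log2 fold change of 0.19 ± 0.25 (SE). The X-linked Pdk3 and Pdha1, the catalytic subunit of pyruvate dehydrogenase, had double-deficient log2 fold changes of 0.14 and 0.07 in CLPs and of 0.06 and 0.02 in B cell progenitors. Pdk3 had 52.1, 44.3 and 42.3 CPM in wild-type and 52.9, 52.2 and 51.1 CPM in double-deficient CLPs, and 54.3, 50.9 and 47.6 CPM against 59.1, 59.1 and 44.1 CPM in B cell progenitors.

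Hif1a did not pass the threshold in any comparison of genotypes. Its levels were 119, 104 and 115 CPM in wild-type and 84.3, 114 and 107 CPM in double-deficient CLPs, which overlapped. Among B cell progenitors they were 151, 158 and 142 CPM in wild-type libraries and 129, 140.2 and 127 CPM in double-deficient ones, and the single-deficient libraries (122 to 133 CPM) were below the wild-type ones too. The double-deficient log2 fold changes were -0.19 ± 0.12 (SE, adjusted p = 0.765 by edgeR) and -0.20 ± 0.12 (SE, adjusted p = 0.502 by edgeR). In CLPs the value was -0.073 without double-deficient replicate 1 and -0.26 without the 4 libraries of high Flt3.

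Genes were also counted whose double-deficient and wild-type libraries did not overlap. CLPs had 12 of 37 higher (Hk1, Gpi1, Aldoa, Gapdh, Pgk1, Pgam1, Pkm, G6pdx, Pgd, Tkt, Taldo1 and Rpia), against 6.9% of all genes, and 1 lower (Pgls), against 6.77%. B cell progenitors had 4 of 35 higher (Hk1, Pfkm, Pdk1 and Rpia), against 9.31% of all genes, and 4 lower (Slc16a1, Pdhb, Pgls and Hif1a), against 8.36%. Levels of genes in a library share its composition. The granulocyte and macrophage sums given above were also higher in most double-deficient libraries, and the granulocyte genes were higher in single-deficient cells as well. The part of myeloid transcripts in these counts was not tested.

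Single deficiency of either gene gave no call among the members by edgeR or DESeq2. In Plcg1-/-Plcg2+/+ CLPs, where edgeR called 0.00658% and DESeq2 0.0987% of all genes, 3 of 37 had an unadjusted p of at most 0.05 (2.85% of all genes did) and the median was 0.13. In Plcg1+/+Plcg2-/- CLPs, where edgeR called 0% and DESeq2 0.0724% of all genes, 1 of 37 had an unadjusted p of at most 0.05 (3.92% of all genes) and the median was -0.04. B cell progenitors of these genotypes, with 0.06% and 0.0467% of all genes called by edgeR and 0.193% and 0.113% by DESeq2, had 1 and 0 of 35 with an unadjusted p of at most 0.05 (9.93% and 2.84% of all genes) and medians of 0.04 and 0.05.

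Double-deficient cells were also compared with Plcg1-/-Plcg2+/+ and Plcg1+/+Plcg2-/- cells, with 0 members called by edgeR. Of all genes 0.0263% and 0.0526% were called in these comparisons of CLPs, and 0.213% and 0.153% in those of B cell progenitors. At an unadjusted p of at most 0.05 there were 3 and 6 of 37 members in CLPs (4.29% and 7.54% of all genes) and 3 and 3 of 35 in B cell progenitors (16.6% and 11%). The median of the members was 0.03 against Plcg1-/-Plcg2+/+ and 0.23 against Plcg1+/+Plcg2-/- cells in CLPs, and 0.11 and 0.09 in B cell progenitors. DESeq2 called Rpia in both comparisons of CLPs (0.592% and 0.685% of all genes) and no member in those of B cell progenitors (5.35% and 1.07%). The departure of the double-deficient level from the sum of both single effects was called at no member of either population by edgeR, against 0.0197% and 0.0267% of all genes, nor by DESeq2, against 0.151% and 4.28%. At an unadjusted p of at most 0.05 there were 2 of 37 and 0 of 35 members, against 4.77% and 15.3% of all genes.

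Other genes of glucose use and of the HIF pathway were read beside the members. Of 51 further enzymes, transporters and regulators, 45 were tested in CLPs and 43 in B cell progenitors, and of 19 HIF pathway genes outside glycolysis 19 were tested in each. None passed the threshold in double-deficient against wild-type cells, with medians of 0.07 and 0.13 for the first list and of 0.12 and -0.01 for the second.

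The same genes were then compared between B cell progenitors and CLPs of one genotype, which came from the same mice. In wild-type mice 3 of 37 were called by edgeR, against 3.5% of all genes: Gapdh and Eno1 fell and Pdha1 rose. Of all genes 3.14% were called higher and 0.354% lower. The called counts were 6 of 37 in Plcg1-/-Plcg2+/+ (background 3.78%, with 3.04% higher and 0.738% lower), 4 of 37 in Plcg1+/+Plcg2-/- (background 3.21%, with 2.75% higher and 0.459% lower) and 4 of 37 in double-deficient mice (background 3.24%, with 2.95% higher and 0.29% lower). Pdha1 was the 1 member called higher in each genotype, and all others were lower. The median log2 fold change of the members was -0.38, -0.44, -0.23 and -0.31 in these 4 genotypes, against -0.01, 0.13, 0.08 and -0.03 over all genes. Without replicate 1 of the B cell progenitors these medians were -0.22 in wild-type, -0.74 in Plcg1-/-Plcg2+/+ and -0.55 in Plcg1+/+Plcg2-/- mice, and without replicate 3 of the CLPs -0.67 and -0.45 in the 2 single-deficient genotypes. With the mouse as a block in the fit the counts were 3, 6, 3 and 4, against 3.6%, 2.98%, 3.32% and 3.42% of all genes. Pgam1 was then called in all 4 genotypes and Eno1 in none. Of the 50-base exon windows of Pgam1 41.5% occur in other genes as well.

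Gapdh (chromosome 6, 125161715 to 125166467, minus strand) encodes the dehydrogenase that yields NADH and fell in B cell progenitors of every genotype. It had 479, 591 and 577 CPM in wild-type CLPs and 234, 344 and 338 CPM in B cell progenitors of the same mice. The log2 fold changes were -0.84 ± 0.16, -0.97 ± 0.16, -0.71 ± 0.16 and -0.85 ± 0.16 (SE) in the wild-type, both single-deficient and double-deficient genotypes, with adjusted p of 0.00242, 0.000493, 0.0129 and 0.00192 by edgeR. Of its 50-base exon windows 90.4% occur in other genes as well, so the count can depend on how reads with several positions were handled. Its level was lower in 12 of 12 mice, with log2 differences of -1.10 to -0.61 in the 8 mice whose CLP library had low Flt3 and of -1.47 to -0.64 in the 4 others. With only the 2 groups of a genotype in the fit its adjusted p was 0.0596, 0.0657, 0.0722 and 0.0141 by edgeR. Leaving out 1 library ended its call in 1, 0, 3 and 1 of 6 fits in these 4 genotypes.

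Pdha1 (X chromosome, 160122209 to 160138413, minus strand) rose in B cell progenitors of every genotype, with log2 fold changes of 0.61 ± 0.12, 0.54 ± 0.12, 0.78 ± 0.12 and 0.56 ± 0.12 (SE) and adjusted p of 0.00227, 0.00802, 0.00019 and 0.00513 by edgeR. In wild-type mice it had 151, 150.3 and 142 CPM in CLPs and 206, 229.6 and 234 CPM in B cell progenitors. Its exons overlap those of Map3k15 on the opposite strand by 603 bases, and Map3k15 was itself higher in wild-type B cell progenitors (log2 fold change 3.71 ± 0.25 SE, adjusted p = 3.2e-09 by edgeR). Genes with such an overlap made up 13.9% of all genes tested, 61.4% of those called higher in wild-type B cell progenitors and 13.1% of those called lower. Ambiguous reads were 1.68% to 1.98% of gene and ambiguous reads in CLPs and 0.842% to 1.13% in B cell progenitors. Tsix, whose positions span Xist, had 0 to 0.363 CPM in CLPs. It had 60.6 to 177 CPM in Plcg1-/- B cell progenitors and 4.78 to 10.5 CPM in the other B cell progenitors. How strand was treated in counting is not given in the sources used here, and the part of overlapping transcripts in the Pdha1 value was not tested. Differences between the populations and differences in how their reads were counted cannot be told apart here. Without the 4 mice of high Flt3 the adjusted p of Pdha1 was 0.0979, 0.385, 0.0211 and 0.144 by edgeR, past the threshold in Plcg1+/+Plcg2-/- mice only. With only the 2 groups of a genotype in the fit it was 0.217 and 0.0902 in the single-deficient mice. Leaving out 1 library ended its call in 6 of 6 such fits in Plcg1-/-Plcg2+/+ mice and in 5 of 6 in double-deficient mice.

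Eno1 had 4 to 47 reads in each CLP library and 0 reads in each of the 12 B cell progenitor libraries, where 3 reads are worth 0.12 to 2.03 CPM. In 10 of the 12 B cell progenitor libraries 3 reads were worth less than the median level of the CLPs (1.17 CPM), and in 5 less than their lowest level (0.399 CPM). Eno1 was called in all 4 genotypes, and in none of them without the 4 mice of high Flt3 or with the mouse as a block. No fold change is given because 1 population is at 0. Eno2, with 0 to 34 reads in a library, was not called in any comparison. In the single-deficient and double-deficient genotypes the other calls were falls in B cell progenitors. Gpi1, glucose phosphate isomerase, and Ldha fell in Plcg1-/-Plcg2+/+ mice (log2 fold changes -0.88 ± 0.22 and -0.55 ± 0.13 SE, adjusted p = 0.0282 and 0.0183 by edgeR). Pfkm, the muscle-type phosphofructokinase, fell in both single-deficient genotypes (-0.71 ± 0.16 and -0.63 ± 0.17 SE, adjusted p = 0.0133 and 0.0387 by edgeR). With the mouse as a block, Gpi1 had an adjusted p of 0.0619 and Pfkm in Plcg1+/+Plcg2-/- mice an adjusted p of 0.0625, and Pkm was called in Plcg1-/-Plcg2+/+ mice (adjusted p = 0.0367). Without the 4 mice of high Flt3 none of these calls of Gpi1, Ldha and Pfkm remained (adjusted p = 0.394, 0.279, 0.196 and 0.344 by edgeR, the last for Pfkm in Plcg1+/+Plcg2-/- mice), and the log2 fold change of Gpi1 was -0.52. Slc2a1, the glucose transporter of most cells, fell in double-deficient mice (-0.80 ± 0.20 SE, adjusted p = 0.0224 by edgeR). This call was lost in 6 of 6 fits without 1 library (adjusted p = 0.0603 to 0.207), with no filter on low counts (0.0556), on thinned counts (0.161) and without the 4 mice (0.0944).

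**Figure D3:**
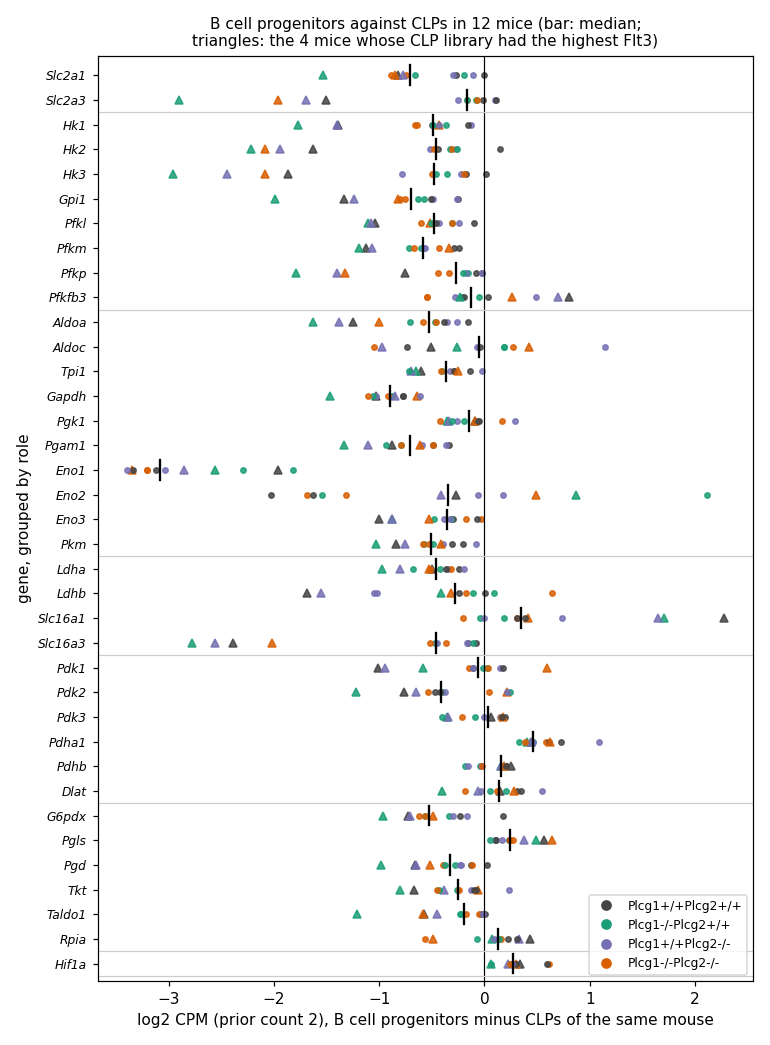
Difference of log2 CPM (prior count 2) between the B cell progenitor and the CLP library of each of 12 mice for the 37 genes, coloured by genotype, with the median as a bar and triangles for the 4 mice whose CLP library had the highest Flt3. Gapdh lies below 0 in 12 of 12 mice and Pdha1 above 0 in 12 of 12, while Hk2, Hk3, Slc2a3 and Slc16a3 lie near 0 in most mice and far below it in the 4 mice marked by triangles.

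Mouse by mouse, 15 of the 37 genes were lower in the B cell progenitors of all 12 mice, against 6.28% of all genes: Slc2a1, Hk1, Gpi1, Pfkl, Pfkm, Pfkp, Aldoa, Tpi1, Gapdh, Pgam1, Eno1, Eno3, Pkm, Ldha and Slc16a3. They include the glucose transporter Slc2a1, 5 of the 8 genes of the hexokinase and phosphofructokinase steps and 7 of the 10 of lower glycolysis. Higher in all 12 mice were Pdha1, Pgls and Hif1a, against 4.96% of all genes. Restricted to the 19 members that overlap no gene on the other strand and share under 1% of their windows, 5 (26.3%) were lower in every mouse, against 6.35% of the 14187 genes without such an overlap: Slc2a1, Hk1, Pfkl, Eno3 and Slc16a3. The summed macrophage genes were also lower in the B cell progenitors of 12 of 12 mice and the granulocyte genes of 11 of 12, with median log2 differences of -0.38 and -0.24. With the level of both lists as a covariate the median of the members in wild-type mice was -0.36. The sum of 4 platelet genes was lower in 10 of 12 mice and that of 7 genes of T, NK and innate lymphoid cells in 9 of 12, with median differences of -0.59 and -0.49. The sum of the latter was 18.8 to 260.2 CPM over the CLP libraries and 17.3 to 95.7 CPM over the B cell progenitor libraries, and the platelet sum 23.4 to 384 CPM and 19.2 to 93.4 CPM. The part of these cells in the differences of the members was not tested.

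These differences were larger in the 4 mice whose CLP library had high Flt3. The median over the genes was -0.72 in these 4 mice and -0.27 in the 8 others. The log2 difference of Hk3 was -2.96 to -1.87 in the 4 mice and -0.78 to 0.012 in the 8 others. Hk2, the hexokinase induced by growth signals, had differences of -2.22 to -1.63 in the 4 mice and of -0.52 to 0.14 in the others. Those of Slc2a3, a glucose transporter of high affinity, were -2.90 to -1.50 and -0.25 to 0.11. Slc16a3, the exporter of lactate in glycolytic cells, had -2.78 to -2.02 and -0.52 to -0.084, so that for all 4 of these genes the 2 sets of mice did not overlap. Slc16a1 lay in the other direction, at 0.41 to 2.27 in the 4 mice and -0.21 to 0.74 in the others, which overlapped. These 4 and 8 mice were parted after the data were seen, by Flt3, and no test was run between them.

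Without the 4 mice, 2 mice were left in each genotype. The members called by edgeR were then Gapdh and, in Plcg1+/+Plcg2-/- mice only, Pdha1 (adjusted p = 0.0211). Gapdh was called in each, with adjusted p of 0.00806, 0.00476, 0.0224 and 0.00258. The median of the members was then -0.12 in wild-type mice, against -0.38 with all 3 mice.

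No member passed the test of whether the difference between the populations itself depended on the genotype. Relative to wild-type mice, 0 of 37 were called by edgeR or DESeq2 in each of the 3 knockout genotypes, where 0% of all genes were called, and 0, 0 and 1 of 37 had an unadjusted p of at most 0.05, against 3.48%, 0.901% and 1.37% of all genes. Hif1a was higher in wild-type B cell progenitors, at 151, 158 and 142 CPM against 119, 104 and 115 CPM in CLPs, with an adjusted p of 0.0336 by edgeR but a log2 fold change of 0.43 ± 0.11 (SE), under the threshold of size. Pgls was higher in the B cell progenitors of 12 of 12 mice, with log2 fold changes of 0.31 to 0.42 in the 4 genotypes and no call.

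Of the 51 further genes of glucose use, 48 were tested between the populations. Rpe, the epimerase of the non-oxidative pentose phosphate arm, rose in B cell progenitors of all 4 genotypes (log2 fold changes 0.57 to 0.86), and its exons also overlap a gene on the other strand. Pgam2, the muscle form of phosphoglycerate mutase, fell in wild-type and Plcg1+/+Plcg2-/- mice (-1.15 and -1.55), but with the mouse as a block its adjusted p in wild-type mice was 0.0698. With the block Pdp2, a phosphatase that activates pyruvate dehydrogenase, was called lower in double-deficient mice (adjusted p = 0.0403 by edgeR). No gene of the HIF list was called without the block, and with it Egln2, an oxygen-sensing prolyl hydroxylase, was called lower (-0.54, adjusted p = 0.031) and Bnip3l, a receptor for mitophagy, higher (0.54, adjusted p = 0.0047) in double-deficient mice by edgeR. The medians in wild-type mice were -0.11 for the further genes of glucose use and -0.03 for the HIF list.

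Ratios between related enzymes or transporters of one library need no scaling and were compared over the 12 mice by an exact 2-sided sign-flip permutation test, with Benjamini-Hochberg adjustment over 12 ratios. The ratio of Slc16a3 to Slc16a1 was lower in the B cell progenitors of 12 of 12 mice, by a mean log2 of -1.66 ± 1.81 (SD, n = 12, exact permutation p = 0.000488, the smallest that 12 mice can give, adjusted p = 0.00195). The log2 ratio was -3.06 ± 1.33 in CLPs and -4.71 ± 1.42 in B cell progenitors (SD, n = 12 each). In the 4 mice of high Flt3 the difference ranged from -4.70 to -2.45, and in the 8 others from -0.87 to -0.16, where it was negative in 8 of 8 (mean -0.50, exact permutation p = 0.00781, adjusted p = 0.0312).

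**Figure D4:**
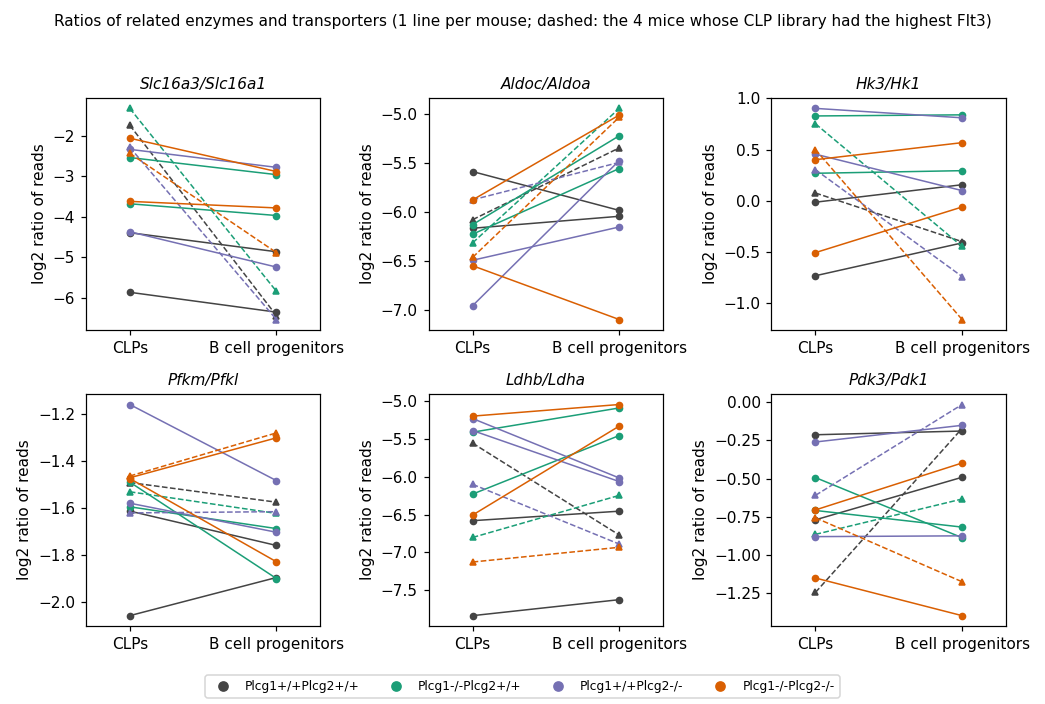
Log2 ratio of reads of 6 pairs of related genes in the CLP and B cell progenitor library of each of 12 mice, with 1 line per mouse, coloured by genotype, and dashed lines for the 4 mice whose CLP library had the highest Flt3. Slc16a3/Slc16a1 falls along all 12 lines, steeply along the dashed ones, Aldoc/Aldoa goes up along 10 of 12, and the other ratios go either way.

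The ratio of Aldoc to Aldoa was higher in the B cell progenitors of 10 of 12 mice (mean log2 0.61 ± 0.66 SD, n = 12, exact permutation p = 0.0122, adjusted p = 0.0366), but at 0.43 without the 4 mice its adjusted p was 0.188 by the same exact test, and Aldoc was low in every library. Eno2/Eno1 and Eno3/Eno1 were higher in 12 of 12 mice (exact permutation p = 0.000488), which rests on the 0 reads of Eno1 in B cell progenitors and on the prior count. The other 8 ratios did not pass the threshold, with means between -0.31 (Hk3/Hk1) and 0.12 (Pdk3/Pdk1). Without the 4 mice the mean Slc2a3/Slc2a1 turned from -0.12 to 0.33 (exact permutation p = 0.0156, adjusted p = 0.0469, higher in 7 of 8 mice). Hk2/Hk1 turned from -0.16 to 0.11 (exact permutation p = 0.109). Between genotypes 3 against 3 libraries cannot reach an exact p below 0.05, and the ratios were not tested there.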

How the data were processed

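Poly(A) RNA of sorted CLPs and B cell progenitors was sequenced from 12 transplant recipients, 24 libraries in 8 groups of 3. Reads were aligned by the authors (STAR 2.5.0a, BaseSpace, mm10), who deposited raw counts of reads per gene, with no normalization. The counting program and its strand setting are not given in the sources used here. In each file 2 lines name no gene (reads on no gene and ambiguous reads) and were left out of library sizes and tests. They held 17.9% to 45.2% of reads (no gene) in CLPs and 59.9% to 87.3% in B cell progenitors. Labels gave the groups and the mouse.

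Tests of the deposited counts used edgeR 4.0.16 (R 4.3.3) with TMM scaling, filterByExpr and the quasi-likelihood test, in 1 fit per population over 12 libraries for genotypes (15209 and 15001 genes) and 1 fit over 24 libraries for populations (17212 genes), 19 comparisons in all. Benjamini-Hochberg adjustment was over all genes of a fit. CPM are from TMM-scaled sizes of the 24 libraries. The members and lists were chosen with earlier results of these data known. Values by library were given for called members, for the 4 members of lowest p in double-deficient against wild-type cells of each population, for Hif1a and for X-linked members. Replicate numbers were shared between genotypes, but same-numbered libraries did not deviate together in any comparison of a knockout genotype with wild-type. Each mouse tag in the labels is shared by 1 CLP and 1 B cell progenitor library, so populations were also fitted with the mouse as a block. No libraries were duplicates (chi-square per degree of freedom 9.62 to 147). The p-values measure the spread between recipients, which may share donors, and limits from reads cover counting error only. Alternatives were DESeq2 1.42.0, RLE size factors, all genes unfiltered, a call by adjusted p without the fold, blocks, groups compared alone, thinned counts, covariates and each library left out. Scripts were tested on simulated data. Promoters came from RefSeq (GRCm38.p6) and gene positions, exon lengths and overlaps from GENCODE (GRCm38). Figures used matplotlib 3.10.9.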

Additional observations from a re-analysis of the deposited data

How the results depend on the processing

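By edgeR the 0 calls among the members in the comparisons of genotypes (at an unadjusted p of at most 0.05 there were 0 to 9) were the same under RLE size factors, adjusted p alone and no filter on low counts, and no setting made more than 2 calls in any comparison of genotypes. DESeq2 called 2 members in double-deficient against wild-type CLPs, 1 against each single-deficient genotype and 2 in double-deficient against wild-type B cell progenitors, and 5 in wild-type B cell progenitors against CLPs. With the replicate number as a block, although the numbers do not pair these libraries, 1 member was called in double-deficient CLPs (Pgls, adjusted p = 0.0312) and 2 in B cell progenitors (Pgls, adjusted p = 0.0189, and Slc16a1, adjusted p = 0.0283). In the 3 comparisons in which same-numbered libraries deviated together (double-deficient CLPs against each single-deficient genotype, and double-deficient against Plcg1+/+Plcg2-/- B cell progenitors) the block gave 0 calls among the members. With the 2 groups fitted alone 2 members were called in double-deficient B cell progenitors, and 1, 0 and 0 between the populations of wild-type, Plcg1-/-Plcg2+/+ and Plcg1+/+Plcg2-/- mice. Counts thinned to the smallest library gave 1 call in double-deficient CLPs and 3, 2 and 2 between the populations of both single-deficient genotypes and the double-deficient one. With the share of reads on no gene as a covariate 1 member was called in double-deficient B cell progenitors. No filter gave 2 calls between the populations of double-deficient mice. Without genes that overlap on the other strand the counts between populations were 2, 1 and 2 in the 3 knockout genotypes, and without the 4 mice of high Flt3 they were 1, 1, 2 and 1 in the 4 genotypes, both chosen after the data were seen. Except where a share of all genes is given further above, none is given for the counts in this and the next paragraph. These counts, the 5 by DESeq2 included, show how calls moved with the setting and do not set the members against other genes.

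Leaving out 1 library gave 0 to 1 calls in double-deficient CLPs (Pgls without wild-type replicate 1, adjusted p = 0.0355, and Rpia without double-deficient replicate 1, adjusted p = 0.044, by edgeR), 2 to 3 between the populations of wild-type mice, and 1 to 10, 1 to 3 and 1 to 3 in the 3 knockout genotypes. The calls of Slc2a1 in double-deficient and of Pdha1 in Plcg1-/-Plcg2+/+ mice were lost in each of 6 such fits. Directions turned for Pdha1 in double-deficient CLPs (-0.063 thinned, -0.044 with the share of reads on no gene) and for G6pdx in double-deficient B cell progenitors (-0.20 with the myeloid level). In B cell progenitors the values without 1 library ranged from -0.0022 to 0.19 for Pdk3 and from -0.0012 to 0.073 for Pdha1. Among ratios, Eno3/Eno1 with a prior count of 5 was 0.65 and Aldoc/Aldoa on thinned counts 0.52, neither past the threshold, Pdk2/Pdk1 on thinned counts was -0.32 and past it, and Ldhb/Ldha on thinned counts -0.19. Without the 4 mice Hk2/Hk1 was 0.11, Hk3/Hk1 0.086, Slc2a3/Slc2a1 0.33, Pfkp/Pfkl 0.19, Aldoc/Aldoa 0.43 and Pdk3/Pdk1 -0.0031. Without 1 mouse Pfkp/Pfkl ranged from -0.035 to 0.073, Aldoc/Aldoa from 0.53 to 0.72 and Ldhb/Ldha from -0.10 to 0.11. The adjusted p of Aldoc/Aldoa missed the threshold in 9 of these 12 exact permutation tests (up to 0.0732). The cause of these moves was not tested. Depth limits Eno1, Eno2, Aldoc and Ldhb, and 3 libraries a group limit the rest.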
